A study of Mus musculus with 9 samples.

Results

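Heat shock chaperone genes were followed in lung fibroblasts of aged mice, 30 days after saline or bleomycin. The 10 genes, Hspa1a, Hspa1b, Hspa8, Hsp90aa1, Hsp90ab1, Hsph1, Hspb1, Dnajb1, Hspd1 and Hspe1, were taken by symbol from the 43346 genes of the count table, and each symbol named 1 row. All 10 passed the filter on low counts (an average of 25 or more counts per library), which left 16877 genes to test. The working name of the set, cytosolic heat shock chaperones, covers 8 of them, since Hspd1 and Hspe1 encode the chaperonin of the mitochondrial matrix.

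RNA was sequenced from 9 libraries of primary lung fibroblasts, 4 labelled aged sham and 5 labelled aged bleo. All mice were of the Col1a1-GFP strain, in which a Col1a1 promoter drives GFP, and were aged (72 weeks in the sample labels, 18 months in the treatment protocol). Each had received 1 intratracheal dose of saline (aged sham) or of bleomycin (aged bleo), a drug that injures the lung epithelium and leads to fibrosis. On day 30 the lungs were digested and GFP+, CD45-, CD31-, EpCAM- cells were sorted straight into lysis buffer. The gate was thus set for cells in which the Col1a1 promoter was active. No young mice were analysed here. Library totals ran from 49921946 to 62370512 counts in aged sham and from 53833507 to 68260600 in aged bleo, and a gene with 3 counts would stand at 0.0409 to 0.0605 CPM (counts relative to the scaled library total). Of 8 fibroblast identity genes, 4 were called higher and 2 lower, against 12.3% and 11.5% of all genes tested. The 8 summed to 29192 to 37185 CPM in the sham libraries and to 63307 to 84431 CPM after bleomycin. Col1a1 is 1 of the 8 and its promoter set the gate, so this sum is no separate check of the cell type. Among the 8, Col1a1 rose from 4154 to 20853 CPM and Col3a1 from 7910 to 23902 CPM, whereas Dcn fell from 8122 to 2795 CPM and Tcf21 from 106 to 49.6 CPM. Marker sums of other cell types were lower but not 0. Of 8 macrophage markers, 5 were called higher and 0 lower, against 12.3% and 11.5% of all genes tested. Their sums were 178 to 294 CPM in aged sham and 524 to 1574 CPM in aged bleo. Those of 8 neutrophil markers were 196 to 1103 and 98.1 to 955 CPM. Those of 8 smooth muscle and pericyte markers were 1344 to 2689 and 813 to 1752 CPM. No marker on these lists was at 0 in every library. Among 8 endothelial markers, Tek alone had 149 to 179 and 9.51 to 55.7 CPM, and the other 7 summed to 15.9 to 24.3 CPM in the sham libraries and 16.1 to 26.0 CPM after bleomycin. Each library also carries a code whose last digit was 4 throughout the sham group and in aged bleo 4, 5 in aged bleo 1 to 3, and 6 in aged bleo 5. The labels do not say what that digit stands for, so it and the treatment cannot be told apart except through aged bleo 4.

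Heat shock proteins are chaperones, which bind unfolded stretches of other proteins and help them fold, refold or be degraded. In unstressed cells heat shock factor 1 (HSF1) is held inactive, and when misfolded proteins build up it forms trimers, binds heat shock elements (inverted repeats of the unit nGAAn) and switches on the inducible chaperone genes. HSP70 proteins work with J-domain proteins, which deliver clients and stimulate ATP hydrolysis, and with nucleotide exchange factors, while HSP90 proteins act later on clients such as kinases and steroid receptors.

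Promoter sequences were read from a RefSeq table on the mouse build GRCm38.p6, which held 7 of the 10 genes in 10 entries and had none for Hspa8, Hsp90aa1 and Hsp90ab1. Below are the 250 bases before the annotated start of 4 genes, 5′ to 3′ on the coding strand, chosen because 3 of them were called higher in aged bleo and Dnajb1 was not. The capitals mark matches to GAANNTTC or TTCNNGAA, the inner parts of 2 inverted units of a heat shock element. Both motifs read the same on either strand, and both strands were covered. The windows are chr17:34972157-34972406 (minus strand), chr17:34959239-34959488 (minus strand), chr5:135887669-135887918 (plus strand) and chr8:83607925-83608174 (plus strand).
Hspa1a: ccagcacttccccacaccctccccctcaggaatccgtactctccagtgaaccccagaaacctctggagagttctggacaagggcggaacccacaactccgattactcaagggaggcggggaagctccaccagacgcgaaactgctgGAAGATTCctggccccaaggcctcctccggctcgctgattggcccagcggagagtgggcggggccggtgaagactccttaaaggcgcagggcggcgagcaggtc
Hspa1b: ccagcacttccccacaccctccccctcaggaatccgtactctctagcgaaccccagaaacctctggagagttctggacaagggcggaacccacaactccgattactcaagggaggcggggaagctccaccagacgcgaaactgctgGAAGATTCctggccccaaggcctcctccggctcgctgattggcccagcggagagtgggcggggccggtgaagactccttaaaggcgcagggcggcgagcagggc
Hspb1: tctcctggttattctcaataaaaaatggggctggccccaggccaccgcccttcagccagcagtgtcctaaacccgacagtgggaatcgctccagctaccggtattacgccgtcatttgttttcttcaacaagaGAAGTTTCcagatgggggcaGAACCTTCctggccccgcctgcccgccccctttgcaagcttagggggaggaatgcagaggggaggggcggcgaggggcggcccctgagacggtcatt
Dnajb1: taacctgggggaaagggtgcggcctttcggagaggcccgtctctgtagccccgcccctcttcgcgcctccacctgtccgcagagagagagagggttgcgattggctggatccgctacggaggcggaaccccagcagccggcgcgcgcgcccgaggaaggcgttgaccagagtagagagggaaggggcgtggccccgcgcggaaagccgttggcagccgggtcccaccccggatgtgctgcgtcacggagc

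The windows of Hspa1a and Hspa1b differed at 3 of 250 positions and carried the same match, GAAGATTC, at -104 to -97 (the annotated start being position 0). Hspb1 had a match at -117 to -110 and another at -97 to -90. No match was found in Dnajb1, which says only that these letters are not in this window. Over the whole 300-base entries (250 bases before and 50 after the start), 7 of the 10 entries of these genes held GAANNTTC or TTCNNGAA, against 15.1% of all 32851 entries in the table. The 7 include 2 overlapping entries of Hsph1 and the bases that Hspd1 and Hspe1 share (below), so they are not 7 separate sites. Matches before the start were not limited to genes called higher, since Hsph1 and Hspd1, which were not called, also held them. In Hsph1 the match was TTCTCGAA, at -54 to -47 or -33 to -26 depending on the entry, and that of Hspd1 is given below. The windows printed above were chosen by call, so they cannot show whether a match goes with a call.

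Hspd1 and Hspe1 lie head to head on chromosome 1 and shared 1 longer run. The run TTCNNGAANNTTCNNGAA, made of 4 alternating units and overlapping the shorter motifs, was found in 5 of the 32851 entries (0.015%), those of Arpc2, Chordc1, Fam149a, Hspd1 and Hspe1. The 2 chaperonin entries held the same bases on opposite strands, shown here as the 30 bases of chr1:55088053-55088082 with the run in capitals, the plus strand under Hspe1 and the minus strand under Hspd1.
Hspe1: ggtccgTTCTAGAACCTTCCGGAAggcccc
Hspd1: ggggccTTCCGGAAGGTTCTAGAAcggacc

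The run stood at -89 to -72 from the start of Hspe1 and at -144 to -127 from 1 of the 2 annotated starts of Hspd1. The other Hspd1 start lies further upstream, at the edge of the gene span given below, so the run lies inside that span. The window before that other start held no match. A 3-unit run (GAANNTTCNNGAA or its reverse complement TTCNNGAANNTTC) was held by 4 of the 10 entries and by 0.603% of all entries. The 4 were 1 entry each of Hspd1 and Hspe1, which hold the run above, and 2 overlapping entries of Hsph1. In Hsph1 it lay past the start, at 15 to 27 in 1 entry and at 36 to 48 in the other. These matches are descriptions of sequence and no binding was measured.

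Of the 10 genes, 4 were called higher after bleomycin (Hspa1a, Hspa1b, Hspb1 and Hspe1) and 0 were called lower, relative to aged sham. DESeq2 and limma gave the same counts, and none of the 10 was lower at an unadjusted p under 0.05. A call needed a false discovery rate (FDR) under 0.10 in edgeR's quasi-likelihood test and a fold change over 1.5. Over all genes tested, 12.3% were called higher, 11.5% lower and 23.8% in either direction. At an FDR under 0.10 with no fold limit, 7 of the 10 passed, against 44.8% of all genes. In 5 of the 10, every aged bleo library stood above every aged sham library, which held for 16.1% of all genes, and in 0 of the 10 did every aged bleo library stand below, which held for 16.1% as well. The median log2 fold change was 0.50 over the 10 genes and 0.01 over all genes tested. In bulk RNA of sorted cells, a change in RNA per cell and a change in which cells were sorted, fibroblasts or others, cannot be told apart. Macrophage marker sums were also higher in every aged bleo library (above), and their part in the values of the 10 genes was not tested.

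**Figure D1:**
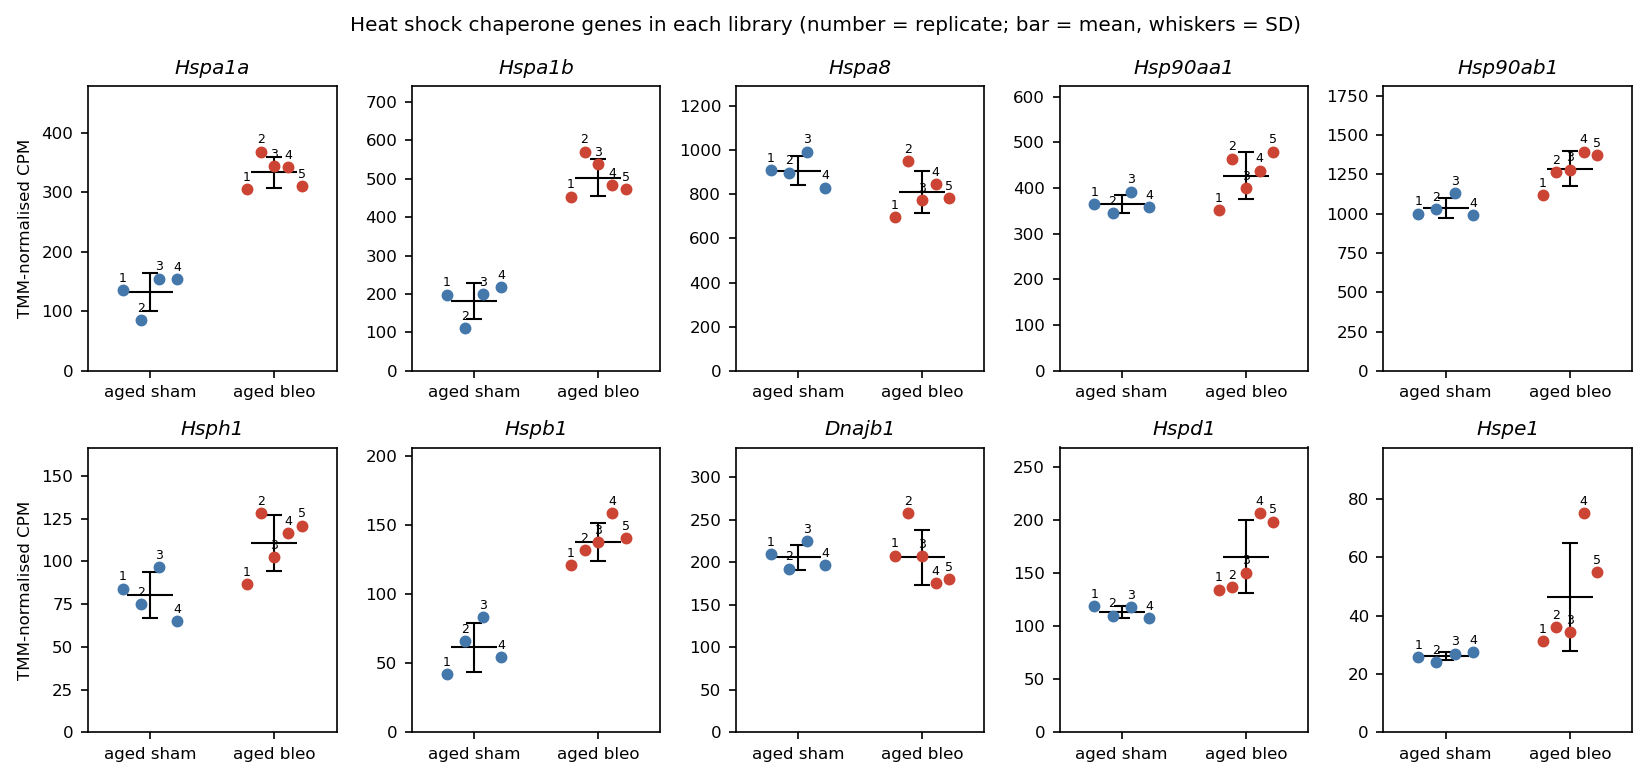
CPM scaled by TMM (y axis, linear, from 0) of the 10 genes in each aged sham (blue) and aged bleo (red) library, numbered by replicate, with the mean and SD. Hspa1a, Hspa1b, Hspb1, Hspd1 and Hspe1 had no overlap between groups, and Hspe1 spread from 31.3 to 75.1 CPM in aged bleo.

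The stress-inducible HSP70 genes showed the largest differences of the set. Hspa1a and Hspa1b are neighbouring genes without introns that encode nearly the same cytosolic HSP70, which is low in resting cells and is made in quantity after heat or proteotoxic stress. Hspa1a (ENSMUSG00000091971, chromosome 17, 34969190 to 34972156, minus strand, GRCm38) stood at 136, 85.3, 155 and 154 CPM in aged sham 1 to 4 and at 305, 368, 344, 343 and 310.4 CPM in aged bleo 1 to 5. The lowest aged bleo library was well above the highest aged sham library, and aged sham 2 was the lowest of all 9. The means were 133 ± 32.6 CPM (SD, n = 4) and 334 ± 26.2 CPM (SD, n = 5), a log2 fold change of 1.33 (SE 0.17, edgeR FDR 6.90e-04), or 2.52-fold with a 95% interval of 1.93 to 3.29.

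Hspa1b (ENSMUSG00000090877, chromosome 17, 34956436 to 34959238, minus strand) had 199, 111, 199 and 218 CPM in aged sham and 453, 570.2, 538, 482 and 472 CPM in aged bleo. As for Hspa1a, aged sham 2 was lowest and aged bleo 2 highest, and the groups did not overlap. The log2 fold change was 1.47 (SE 0.19, edgeR FDR 7.05e-04), from 182 ± 47.9 CPM (SD, n = 4) to 503 ± 49.0 CPM (SD, n = 5), or 2.77-fold (95% interval 2.06 to 3.71).

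The 2 genes could not be counted independently. Their coding sequences were identical at 99.4% of 1926 aligned positions, and 58.8% of the 50-base windows of Hspa1a transcripts also occurred in Hspa1b. Their split is therefore uncertain, and their sum is the safer quantity: it was 314 ± 80.0 CPM (SD, n = 4) in aged sham and 837 ± 73.5 CPM (SD, n = 5) in aged bleo. An antisense gene, Gm20481, overlaps Hspa1a by 2225 bases on the plus strand, and the library kit did not mark strand. Its count was 38.8% to 40.2% of that of Hspa1a in aged sham and 39.3% to 42.4% in aged bleo, and it rose with Hspa1a (log2 fold change 1.36, SE 0.17, edgeR FDR 5.29e-04), so reads of these 2 genes cannot be told apart.

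The constitutive HSP70 did not follow them. Hspa8 (ENSMUSG00000015656, chromosome 9, 40800984 to 40805200, plus strand) encodes HSC70, the abundant HSP70 that folds new proteins, uncoats clathrin vesicles and carries proteins to lysosomes. It stood at 911, 898, 993 and 829.6 CPM in aged sham and at 697, 949, 774, 845 and 783 CPM in aged bleo. The groups overlapped, with aged sham 3 highest and aged bleo 1 lowest. The log2 fold change was -0.17 (SE 0.11, 95% interval -0.41 to 0.08, edgeR FDR 0.269), between 908 ± 67.0 CPM (SD, n = 4) and 809.6 ± 93.9 CPM (SD, n = 5).

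Set against Hspa8 in the same library, the inducible HSP70 transcripts were higher in aged bleo. Per kilobase, the sum of Hspa1a and Hspa1b was 0.504 ± 0.138 times the Hspa8 level (FPKM, SD, n = 4) in aged sham and 1.51 ± 0.104 times (SD, n = 5) in aged bleo. In single libraries this ratio was 0.532, 0.317, 0.516 and 0.65 in aged sham and 1.58, 1.43, 1.65, 1.41 and 1.45 in aged bleo. Every aged bleo library was above every aged sham library. Of the 50-base windows of Hspa8, 39.4% occurred in other genes (34.6% in Gm15459), which bears on the size of the ratio. The log2 ratio of CPM, -1.57 in aged sham and 0.05 in aged bleo, differed by 1.62 (2-sided exact permutation p = 0.00794, the smallest that 4 against 5 libraries allow, adjusted p = 0.0238 over 3 ratios, higher in 5 of 5 aged bleo libraries).

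**Figure D2:**
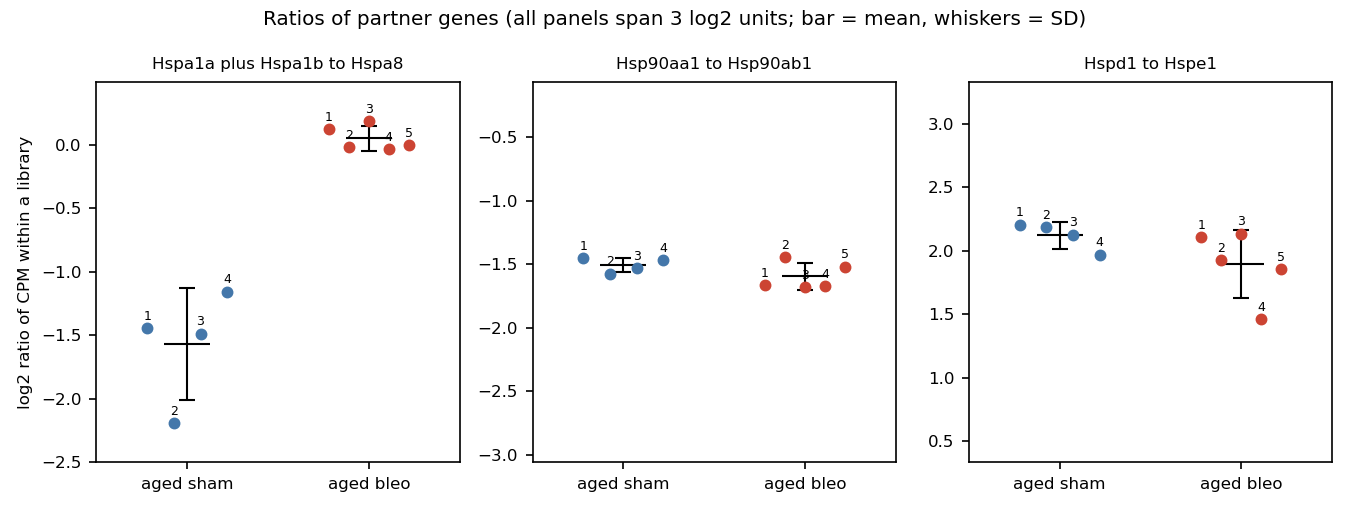
Log2 ratio of CPM (y axis) of 3 gene pairs within each library, in aged sham (blue) and aged bleo (red), with the mean and SD. The ratio of Hspa1a plus Hspa1b to Hspa8 rose from a mean of -1.57 to 0.05, while the other two ratios overlapped between groups.

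The HSP70 helpers in the set moved less. Dnajb1 (ENSMUSG00000005483, chromosome 8, 83608175 to 83611902, plus strand) encodes HSP40, the J-domain partner of the inducible HSP70 and itself an HSF1 target. Its levels were 209.5, 192, 225 and 196 CPM in aged sham and 208, 257, 207, 176 and 179.9 CPM in aged bleo. Both the highest and the lowest library were aged bleo (2 and 4), so the aged sham range lay inside the aged bleo range. The log2 fold change was 0.00 (SE 0.12, 95% interval -0.27 to 0.26, edgeR FDR 0.992), with means of 206 ± 14.6 CPM (SD, n = 4) and 205 ± 32.6 CPM (SD, n = 5).

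Hsph1 (ENSMUSG00000029657, chromosome 5, 149614287 to 149636376, minus strand) encodes HSP110, a nucleotide exchange factor that frees clients from HSP70. It had 84.1, 75.1, 96.4 and 64.9 CPM in aged sham and 86.6, 128, 102, 116 and 121 CPM in aged bleo. Aged bleo 1 lay inside the aged sham range and the other 4 lay above it. With means of 80.1 ± 13.4 CPM (SD, n = 4) and 111 ± 16.5 CPM (SD, n = 5), the log2 fold change was 0.47 (SE 0.14, edgeR FDR 0.0313), which passed the FDR limit, but the fold of 1.38 was under 1.5. None of its 50-base windows occurred in another gene.

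The HSP90 genes differed between the groups by less than 1.5-fold. Hsp90ab1 (ENSMUSG00000023944, chromosome 17, 45567775 to 45573271, minus strand) encodes the constitutive cytosolic HSP90. Its values were 999.7, 1031, 1132 and 991 CPM in aged sham and 1116, 1263, 1281, 1394 and 1373 CPM in aged bleo. Aged bleo 1 was just below aged sham 3, and the other 4 aged bleo libraries were above every aged sham library. The mean went from 1038 ± 64.6 CPM (SD, n = 4) to 1286 ± 110.3 CPM (SD, n = 5), a log2 fold change of 0.31 (SE 0.10, edgeR FDR 0.0411) and a fold of 1.24, under the limit of 1.5.

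Hsp90aa1 (ENSMUSG00000021270, chromosome 12, 110690605 to 110702728, minus strand), the stress-inducible HSP90, had 365, 346, 392 and 358 CPM in aged sham and 352, 464, 399.9, 438 and 479 CPM in aged bleo. Aged bleo 1 fell among the aged sham libraries. The log2 fold change was 0.22 (SE 0.10, 95% interval -0.01 to 0.46, edgeR FDR 0.122), between 365 ± 19.6 CPM (SD, n = 4) and 427 ± 51.5 CPM (SD, n = 5). The log2 ratio of Hsp90aa1 to Hsp90ab1 in the same library was -1.51 ± 0.06 (SD, n = 4) in aged sham and -1.60 ± 0.11 (SD, n = 5) in aged bleo, a difference of -0.09 (exact permutation p = 0.190, adjusted p = 0.190, 2-sided).

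The small heat shock protein gene was higher in every aged bleo library. Hspb1 (ENSMUSG00000004951, chromosome 5, 135887919 to 135889563, plus strand) encodes HSP25, which holds unfolded proteins without using ATP and binds actin. It stood at 42.2, 65.9, 83.5 and 54.7 CPM in aged sham and at 121, 132, 138, 159 and 141 CPM in aged bleo. The groups were far apart, and the spread was wider, relative to the mean, in aged sham (28.5%) than in aged bleo (10.0%). The log2 fold change was 1.17 (SE 0.18, edgeR FDR 0.00180), from 61.5 ± 17.5 CPM (SD, n = 4) to 138 ± 13.8 CPM (SD, n = 5), or 2.24-fold (95% interval 1.69 to 2.97). A near-copy, Hsp25-ps1, shared 48.8% of the 50-base windows and had 4.29% to 5.55% of the count of Hspb1 in every library.

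The mitochondrial chaperonin genes were higher in every aged bleo library, most in aged bleo 4 and 5. Hspd1 (ENSMUSG00000025980, chromosome 1, 55077835 to 55088243, minus strand) encodes HSP60, which forms the folding chamber. It had 119, 110.0, 118 and 108 CPM in aged sham and 135, 137, 151, 206 and 198 CPM in aged bleo. No library of one group reached the other, and aged bleo 4 and 5 stood apart at the top. The means were 114 ± 5.76 CPM (SD, n = 4) and 165 ± 34.4 CPM (SD, n = 5), with a log2 fold change of 0.54 (SE 0.14, edgeR FDR 0.0184), or 1.46-fold, just under the limit of 1.5. Without aged bleo 1 the log2 fold change was 0.61, and without aged bleo 2 it was 0.60, and either would have been called.

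Hspe1 (ENSMUSG00000073676, chromosome 1, 55088132 to 55091307, plus strand) encodes HSP10, the lid of that chamber, and its annotated span overlaps that of Hspd1 by 112 bases. It had 25.8, 24.1, 27.0 and 27.4 CPM in aged sham and 31.3, 36.1, 34.3, 75.1 and 54.8 CPM in aged bleo. The aged sham libraries were nearly equal, 3 aged bleo libraries were slightly above them, and aged bleo 4 and 5 were far above. From 26.1 ± 1.47 CPM (SD, n = 4) to 46.3 ± 18.5 CPM (SD, n = 5), the log2 fold change was 0.83 (SE 0.25, edgeR FDR 0.0310), or 1.77-fold (95% interval 1.20 to 2.62). The call was lost without aged bleo 4 (log2 fold change 0.58, fold under 1.5), and without aged bleo 4 and 5, an alternative chosen after the values were seen, it was 0.37 with an edgeR FDR of 0.00754. The log2 ratio of Hspd1 to Hspe1 was 2.12 ± 0.11 (SD, n = 4) in aged sham and 1.90 ± 0.27 (SD, n = 5) in aged bleo (difference -0.23, exact permutation p = 0.151, adjusted p = 0.190, 2-sided).

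Other measures were also at their extremes in aged bleo 4 and 5. The summed level of 10 cell cycle genes was 15.9 to 72.3 CPM in aged sham and 100.1, 50.8, 146, 376 and 332 CPM in aged bleo 1 to 5. All 10 were called higher, against 12.3% of all genes. Macrophage markers summed to 524, 724, 605, 1574 and 899 CPM in aged bleo 1 to 5. The 14 genes of the cytosolic CCT chaperonin and prefoldin (below) summed to 978 to 1010 CPM in aged sham and 1063, 981, 1038, 1514 and 1433 CPM in aged bleo 1 to 5. The last digit of the library code also split there, being 5 in aged bleo 1 to 3, 4 in aged bleo 4 and 6 in aged bleo 5. The part of any of these in the chaperonin values was not tested.

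**Figure D3:**
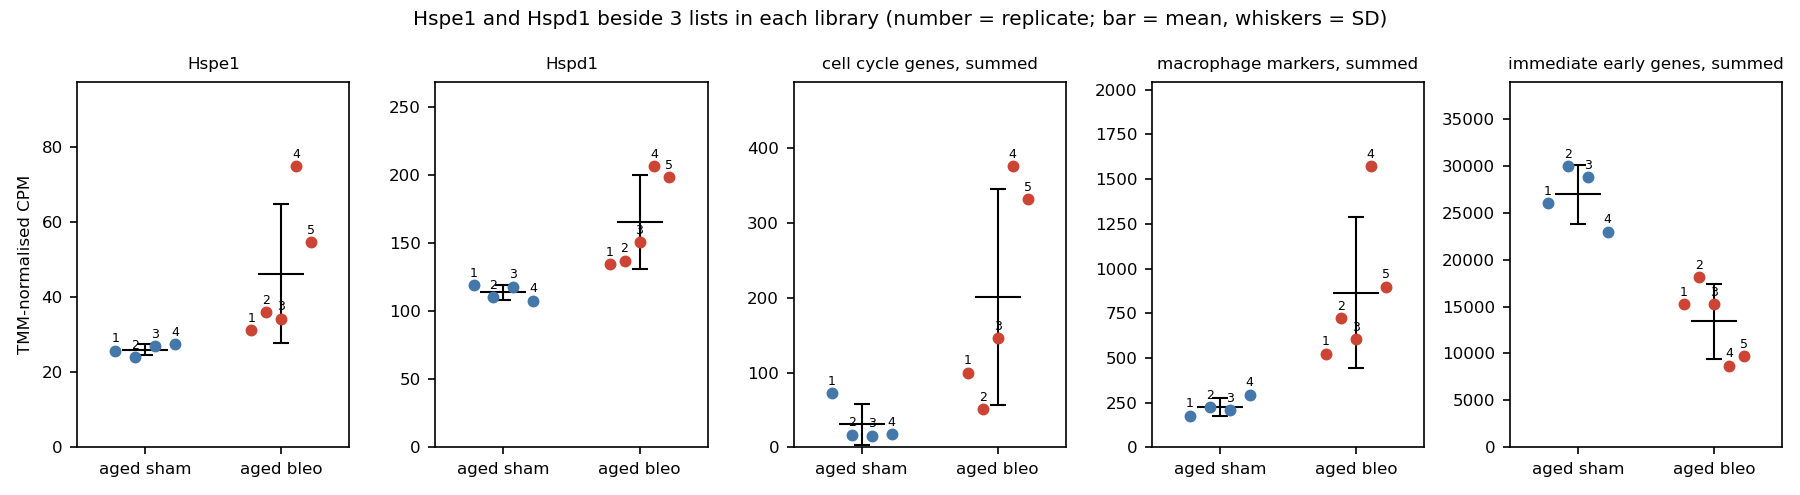
CPM (y axis, linear, from 0) of Hspe1 and Hspd1 and summed CPM of 3 gene lists in each aged sham (blue) and aged bleo (red) library, numbered by replicate, with the mean and SD. Aged bleo 4 and 5 were the highest for both chaperonin genes, the cell cycle genes and the macrophage markers, and the lowest for the immediate early genes.

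**Figure D4:**
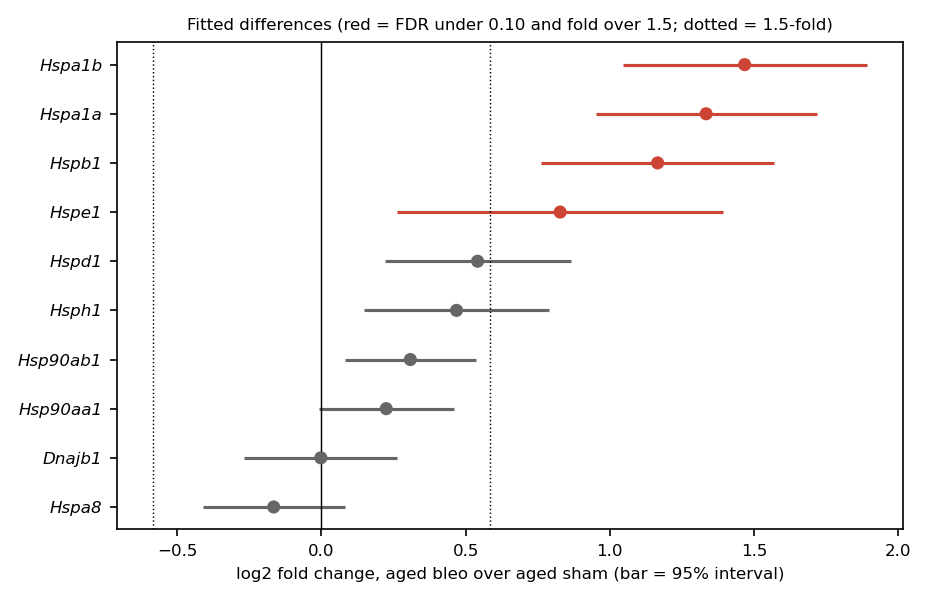
Fitted log2 fold change of each gene, aged bleo over aged sham (x axis), with its 95% interval, red where called, and dotted lines at 1.5-fold. The intervals of Hspa1a, Hspa1b and Hspb1 lay wholly above 1.5-fold, and those of Hsp90aa1, Dnajb1 and Hspa8 crossed 0.

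Levels can be set against each other only per kilobase of transcript, for which the deposited FPKM values were used. In aged sham the order was Hsp90ab1 (145 FPKM), Hspa8 (91.7), Hsp90aa1 (39.0), Dnajb1 (38.1), Hspa1b (27.2), Hspb1 (25.1), Hspa1a (18.7), Hspd1 (18.0), Hspe1 (7.42) and Hsph1 (4.78). The ranges of neighbours overlapped for Hsp90aa1 and Dnajb1 and along the run from Hspa1b to Hspd1. In aged bleo the order was Hsp90ab1 (184.5 FPKM), Hspa8 (83.8), Hspa1b (77.1), Hspb1 (57.6), Hspa1a (48.4), Hsp90aa1 (46.7), Dnajb1 (38.9), Hspd1 (27.0), Hspe1 (13.6) and Hsph1 (6.77). There the ranges of Hspa8 and Hspa1b overlapped, as did those of every pair of neighbours from Hspb1 down to Hspe1. Hsp90ab1 was highest and Hsph1 lowest of the 10 in all 9 libraries.

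Transcripts of the heat shock factors were measured too. Hsf1, the main stress-responsive factor, averaged 41.6 ± 2.92 CPM in the sham libraries (SD, n = 4) and 35.6 ± 3.97 CPM after bleomycin (SD, n = 5; log2 fold change -0.23, SE 0.09, edgeR FDR 0.0903, with overlapping groups). Hsf2, which can form mixed trimers with HSF1, was lower in every aged bleo library, at 24.8 ± 0.573 against 16.7 ± 1.97 CPM (log2 fold change -0.57, SE 0.09, edgeR FDR 0.00227), just under 1.5-fold. Hsf4, known from lens development, was called higher, at 5.74 ± 1.17 against 10.2 ± 1.18 CPM (log2 fold change 0.83, SE 0.15, edgeR FDR 0.00404), a call lost with limma on log2(FPKM + 1). Hsbp1, a small protein that binds HSF1 trimers, was not called (log2 fold change 0.15, edgeR FDR 0.172), and Hsf5 and Hsf2bp were under the count filter. The activity of HSF1 is set after translation and was not measured.

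Partner genes of the chaperones mostly were not called, which also held for all genes tested (12.3% called higher, 11.5% lower). Among 17 co-chaperones of HSP90, 1 was called higher and 0 lower (median log2 fold change 0.09). That gene was Fkbp5, an immunophilin induced by glucocorticoids, with means of 53.1 ± 7.49 CPM (SD, n = 4) and 82.9 ± 9.02 CPM (SD, n = 5) and a log2 fold change of 0.64 (edgeR FDR 0.00347), a call likewise lost with limma on log2(FPKM + 1). Among 19 HSP70 cofactors, 0 were called higher and 2 lower (median 0.00). These were the J-domain genes Dnajb4, with a log2 fold change of -0.78 (edgeR FDR 0.0302), and Dnajb5, with -0.69 (edgeR FDR 0.0492). The Dnajb5 call was lost in 4 of the 9 fits that left out 1 library (aged sham 2 or 3, or aged bleo 4 or 5, with log2 fold changes of -0.85 to -0.57 over the 9).

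The HSP70 family outside the set had no gene called higher and 3 of 6 called lower, against 12.3% and 11.5% of all genes. The median log2 fold change of the 6 was -0.60. The divergent members Hspa12a and Hspa12b were lowest. Hspa12b fell from 49.9 ± 3.43 CPM (SD, n = 4) to 16.4 ± 6.09 CPM (SD, n = 5), a log2 fold change of -1.60 (edgeR FDR 0.00196). Hspa12a fell from 33.9 ± 1.79 to 12.0 ± 5.85 CPM (SE of the log2 fold change 0.35, edgeR FDR 0.0108). Hspa12b is known from endothelial cells, of whose markers Tek was lower and the other 7 summed to overlapping levels (above). Whether endothelial RNA had a part in the Hspa12b values was not tested.

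Of 7 small heat shock protein genes other than Hspb1, 1 was called higher and 1 lower (median log2 fold change -0.17), near the 12.3% and 11.5% of all genes. Hspb8, which works with BAG3 in selective autophagy of misfolded proteins, fell from 118 ± 19.3 CPM (SD, n = 4) to 61.9 ± 13.9 CPM (SD, n = 5), a log2 fold change of -0.93 (edgeR FDR 0.00455). Hspb2, mostly a muscle gene, rose from 7.46 ± 0.962 to 11.4 ± 1.12 CPM (log2 fold change 0.61, edgeR FDR 0.00471), a call lost without aged sham 1, aged sham 4 or aged bleo 1 (0.56 to 0.70 over the 9 fits).

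Few genes of other folding machines were called, where 12.3% of all genes were called higher and 11.5% lower. Of 14 genes of the cytosolic CCT chaperonin and prefoldin, 0 were called either way by edgeR (4 at an unadjusted p under 0.05, median log2 fold change 0.24). Among them Cct2 stood at 120.0 ± 1.39 and 167.7 ± 40.8 CPM (log2 fold change 0.48, edgeR FDR 0.0447), and Tcp1 at 128 and 159.8 CPM (0.32, SE 0.16, edgeR FDR 0.138). Of 13 other mitochondrial chaperones and proteases, 0 were called higher and 1 lower. That was Atf5, a transcription factor of the mitochondrial stress response (log2 fold change -0.91, edgeR FDR 0.0169). Of 16 chaperones of the endoplasmic reticulum, 1 was called higher and 0 lower. That was Serpinh1, which encodes the collagen-specific chaperone HSP47 and is also an HSF1 target, and it rose from 965 ± 99.1 CPM (SD, n = 4) to 1804 ± 236 CPM (SD, n = 5), a log2 fold change of 0.90 (edgeR FDR 0.00129).

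Among 17 HSF1 targets outside the set, 2 were called higher and 2 lower, shares near the 12.3% and 11.5% of all genes, with a median log2 fold change of 0.04. The higher genes were Serpinh1 and Hmox1, the heme oxygenase, at 31.6 ± 2.29 CPM (SD, n = 4) and 48.8 ± 14.8 CPM (SD, n = 5) (log2 fold change 0.63, edgeR FDR 0.0321, call lost without aged sham 2 or aged bleo 5, 0.43 to 0.71 over the 9 fits). The Hmox1 call was also lost with limma on log2 CPM (log2 fold change 0.58). The lower genes were Hspb8 and Dnajb4. Bag3, the HSP70 exchange factor that partners Hspb8 and that was picked out after its values were seen, stood at 179 ± 8.90 CPM and 122.0 ± 21.8 CPM (log2 fold change -0.55, edgeR FDR 0.0103), lower in every aged bleo library but under 1.5-fold.

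**Figure D5:**
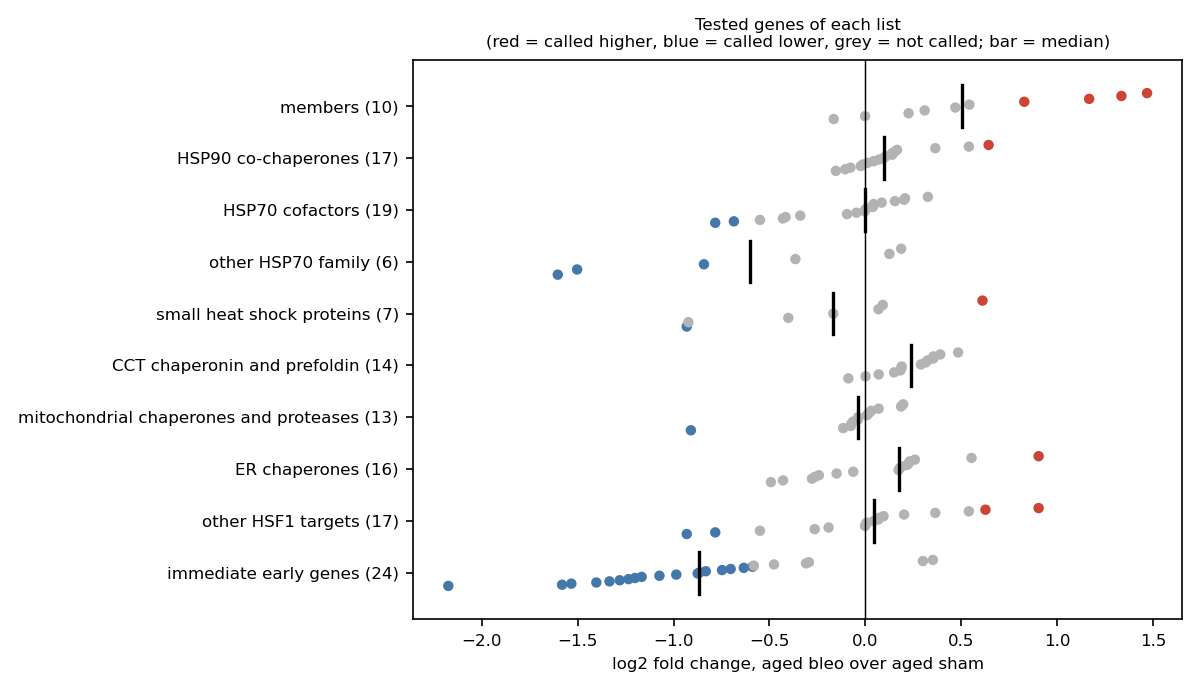
Fitted log2 fold change, aged bleo over aged sham (x axis), of each tested gene in the 10 chaperone genes (top row, members) and in 9 other lists (number tested in brackets), red where called higher, blue where called lower, with the median as a bar. The top row has a median of 0.50, the immediate early genes one of -0.87.

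Inducible HSP70 and immediate early genes are both known to respond to tissue digestion, so the latter were set beside the former. Of 24 immediate early genes, 0 were called higher and 18 lower in aged bleo, against 12.3% and 11.5% of all genes. In 20, every aged bleo library stood below every aged sham library, against 16.1% of all genes. The 24 genes summed to 22976 to 29963 CPM in the sham libraries and to 8718 to 18095 CPM after bleomycin. Atf3 fell from 893 ± 176 CPM (SD, n = 4) to 198 ± 92.0 CPM (SD, n = 5), a log2 fold change of -2.17 (edgeR FDR 0.00177), and Myc from 173 ± 24.0 to 58.0 ± 23.3 CPM (log2 fold change -1.58, edgeR FDR 0.00360). The HSP70 genes and the immediate early genes therefore differed in opposite directions between the same libraries. Whether the handling of the tissue had a part in either was not tested.

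How the genes varied between libraries of the same group also differed. In aged sham the coefficient of variation was highest for Hspb1 (28.5%), Hspa1b (26.3%) and Hspa1a (24.6%) and lowest for Hspd1 (5.06%). The values of Hspa1a and Hspa1b rested on aged sham 2, without which they were 7.16% and 5.44%, while that of Hspb1 was 35.2%. In aged bleo it was highest for Hspe1 (40.0%) and Hspd1 (20.8%) and lowest for Hspa1a (7.83%). After each group was centred on its own mean, Pearson's r of the log2 CPM with the sum of Hspa1a and Hspa1b over the 9 libraries was 0.40 for Dnajb1, 0.33 for Hsp90aa1, 0.23 for Hspa8, 0.21 for Hsph1, 0.09 for Hsp90ab1, 0.06 for Hspe1, -0.04 for Hspd1 and -0.13 for Hspb1. These values leaned on aged sham 2, where the sum was lowest. Without it, an alternative chosen after the values were seen, r was 0.56 for Hspa8, 0.54 for Dnajb1, 0.20 for Hspb1 and -0.34 for Hspd1 over 8 libraries. Of all other genes tested, the 5 closest were Nespas (0.99), the antisense gene Gm20481 (0.97), 9930111J21Rik2 (0.94), Gm11748 (0.93) and D11Wsu47e (0.91), for which r without aged sham 2 was 0.90, 0.78, 0.73, 0.70 and 0.13. These values describe 9 libraries that share depth and preparation, they were the highest among all other genes tested, and no test was made. Nespas and Gm11748 averaged about 1 CPM or less in both groups.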

How the data were processed

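RNA-seq was analysed from 9 libraries of sorted Col1a1-GFP lung fibroblasts, 4 aged sham and 5 aged bleo, prepared with a poly-A kit that does not mark strand. The authors deposited, per gene, raw read counts and FPKM values. Per the submitters' processing notes, bcl2fastq, STAR 2.5.2b and featureCounts (Subread) were used with mm10/GRCm38. The annotation, the strand setting and the handling of shared reads are not given in the sources used here. The deposited FPKM implied library totals 2.27 to 2.42 times the summed counts. Of 42462 identifiers shared with GENCODE M21, 33460 had the same position. All columns were used, and 0 rows lacked a gene name. The 37 mitochondrial genes were listed at 0.

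Genes averaging under 25 counts were left out and 16877 were fitted in edgeR 4.0.16 (R 4.3.3) with TMM scaling, glmQLFit and glmQLFTest on treatment, and Benjamini-Hochberg adjustment. The study's methods name a moderated test, an average of 25 counts, an FDR under 0.10 and a fold over 1.5, and the last 3 were kept. CPM are TMM-scaled. 3 ratios were compared by exact permutation over the libraries. Alternatives used limma 3.58.1 on log2 CPM and on log2(FPKM + 0.1 or 1), DESeq2 1.42.0, other scalings and filters, and libraries left out. The edgeR, DESeq2 and limma (log2 CPM) fits were tried on simulated counts, and the other steps were not.

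The chaperone genes and all gene lists were chosen with earlier results of these data known. Named were the 10 genes, the HSF regulators, in each other chaperone or stress list up to 2 called genes per direction with the largest fold change (or the 2 with the highest mean CPM over the 9 libraries), and the 5 closest patterns. Lists of other cell types are given as counts and sums. No library pair within a group held counts as close as sampling alone would give (chi-square over its degrees of freedom 30.9 to 468 over 16 pairs). The labels give a number of mice per group but tie no library to a mouse, so p-values measure the spread between these libraries. The 95% intervals of fold changes come from the edgeR fit and cover the spread between libraries. Count floors cover counting error only.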

Additional observations from a re-analysis of the deposited data

How the results depend on the processing

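Of the 10 genes, 4 were called higher in each of DESeq2, limma on log2 CPM or log2 FPKM, other scalings and other count filters. It was 3 at an FDR under 0.05 and a fold over 2, where Hspe1 dropped out, 3 to 5 with 1 library left out, and 3 without aged bleo 4 and 5 (added after seeing the data). Summing Hspb1 with Hsp25-ps1, also added after seeing the data, left 4. The share of all genes called in either direction moved too. It was 23.8% in the main fit, 24.5% in DESeq2, 23.9% in limma on log2 CPM and 16.3% with no filter. On log2(FPKM + 0.1) and log2(FPKM + 1) it was 20.6% and 10.6%. At the stricter limits it was 12.8%, with 1 library left out 20.9% to 27.2%, and without aged bleo 4 and 5 19.6%. Over the other chaperone, HSF, immediate early and cell cycle lists, 15 genes were called higher (13 to 17 with 1 library left out) and 25 lower (21 to 29), of which 10 and 12 at the stricter limits. In the main fit, 10 of the higher genes were cell cycle genes and 18 of the lower genes were immediate early genes. Of all genes tested, 12.3% were called higher and 11.5% lower. At the stricter limits, 1224 and 934 of all 16877 genes were called. With limma on log2(FPKM + 1) 11 were called higher, and the calls of Hsf4 (0.56), Fkbp5 (0.55), Hspb2, Hmox1 and Dnajb5 were lost. Dnajb1, at a log2 fold change of -0.00 (FDR 0.992), changed sign without reaching the limit in any: 0.02 for both FPKM fits (0.0230 and 0.0226), 0.00215 with library size scaling, 0.0149 with no filter, 0.00230 with 10 counts in every library, -0.10 to 0.0476 with 1 library left out, 0.00927 without aged sham 4 and aged bleo 4 (the libraries with the highest leukocyte marker sums) and 0.117 without aged bleo 4 and 5.

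The ratio of Hspa1a plus Hspa1b to Hspa8 differed by 1.41 to 1.76 with 1 library left out, by 1.78 without aged sham 4 and aged bleo 4, and by 1.67 without aged bleo 4 and 5. Its exact permutation p, adjusted over 3 ratios, was then 0.0536 or 0.0857, the smallest that fewer libraries allow. Aged sham and aged bleo libraries of the same replicate number had correlations of 0.0922, 0.0623, -0.130 and 0.326. Libraries of different numbers were not compared, so these values cannot say whether replicate numbers pair the libraries. A replicate block left 4 of the 10 genes called higher and gave 0.0310 for Dnajb1.

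Depth was not limiting for these 10 genes, the lowest of which averaged 26.1 CPM. The shared sequence of Hspa1a with Hspa1b, and the unmarked strand at Hspa1a and Gm20481, limit what each gene's value means by itself. Of the 50-base windows, 47.5% of those of Hsp90aa1, 42.1% of Hspd1 and 22.8% of Hspe1 also occurred in other genes. This bears on the levels and ratios of these genes.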
